A study of Mus musculus with 10 samples.

Results

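The Notch pathway was followed through 10 of the 17404 genes of the deposited gene table, in LT-HSCs sorted from fetal livers at E14.5. The 10 genes are the receptors Notch1, Notch2 and Notch4, the ligands Jag1, Jag2 and Dll4, the nuclear proteins Rbpj and Maml1, and the targets Hes1 and Hey1. Bulk RNA-sequencing was done on 6 libraries from KO embryos (genotype Tnfrsf11aCre; Spi1f/f) and 4 libraries from WT embryos (Tnfrsf11a+/+; Spi1f/f). Both groups carried floxed Spi1, and only KO embryos carried Cre, which is expressed from the Tnfrsf11a locus in macrophage precursors and was used by the study to deplete fetal macrophages, since Spi1 (Pu.1) is needed for their differentiation. WT embryos were littermates without Cre, so that an effect of Cre or of 1 altered Tnfrsf11a allele cannot be told apart from that of the deletion. The labels do not name the litter of any embryo. The comparison asks how the sorted cells differ when fetal macrophages are depleted.

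Notch is a transmembrane receptor that is activated by a ligand of the Jagged or Delta-like family on a neighbouring cell. Pulling on the bound receptor by ligand endocytosis exposes it to an ADAM protease and then to gamma-secretase, which frees its intracellular domain. This domain enters the nucleus, joins the DNA-binding protein Rbpj and a Mastermind-like coactivator, and turns on genes such as the repressors Hes1 and Hey1. In the embryo the pathway acts in arterial and other endothelium and in the emergence of HSCs from it, and several of its members are expressed by endothelial and hematopoietic cells alike.

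All 10 genes had an entry in Gencode and lie on 7 chromosomes of GRCm38. Notch1 (ENSMUSG00000026923.15) spans chr2:26457903-26516663 on the minus strand, and Dll4 (ENSMUSG00000027314.6) spans chr2:119325784-119335962 on the plus strand. Rbpj (ENSMUSG00000039191.12) spans chr5:53466152-53657362 on the plus strand. Windows of 250 bases just upstream of a RefSeq transcript start (GRCm38.p6) were found for 8 of the 10 genes, all but Hes1 and Hey1. They were searched on both strands for TGGGAA, the core of the sequence bound by Rbpj. Only Rbpj itself had a match, in 1 of the 8 genes and in both of its windows. Of the 32851 windows of all genes, 21.6% held one, a share of windows that is not directly comparable with a count of genes. The window of Rbpj is shown because it carries 2 copies, in capitals, that start 149 and 65 bases before the transcript start, the second read on the opposite strand. A further RefSeq start of Rbpj has a window at chr5:53590236-53590485, which overlaps the one shown and holds 1 copy, 205 bases before its own start. The windows of Notch1 and Dll4, which hold no match, are shown because Dchs1 was among the genes most like both in level (below). The RefSeq starts of Notch1 and Dll4 are those of the Gencode transcripts that carried nearly all reads. Each window is given 5' to 3' on the strand of its gene. A match or its absence describes these letters and not the binding of a protein.
Rbpj, chr5:53590096-53590345, plus strand: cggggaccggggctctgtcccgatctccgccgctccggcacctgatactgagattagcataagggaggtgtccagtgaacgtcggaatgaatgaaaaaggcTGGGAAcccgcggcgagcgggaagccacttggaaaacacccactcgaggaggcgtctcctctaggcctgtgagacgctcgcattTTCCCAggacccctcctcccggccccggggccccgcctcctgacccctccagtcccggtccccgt
Notch1, chr2:26503823-26504072, minus strand: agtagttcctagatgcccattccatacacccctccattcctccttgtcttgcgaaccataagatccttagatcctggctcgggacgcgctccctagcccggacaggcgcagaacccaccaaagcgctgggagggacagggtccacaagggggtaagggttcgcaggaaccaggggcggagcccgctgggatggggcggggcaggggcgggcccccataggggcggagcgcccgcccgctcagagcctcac
Dll4, chr2:119325534-119325783, plus strand: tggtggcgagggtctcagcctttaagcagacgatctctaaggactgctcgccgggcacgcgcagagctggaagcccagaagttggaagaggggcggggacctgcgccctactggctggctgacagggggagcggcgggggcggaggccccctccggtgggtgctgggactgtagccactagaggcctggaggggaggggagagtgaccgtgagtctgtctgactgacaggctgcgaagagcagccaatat

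The libraries held 5315435 to 30941726 counts on genes, and all 10 genes passed the filter of 11 counts in total. Counts of the single genes ranged from 1 (Jag2 in WT 15420) to 2931 (Dll4 in KO 15405). A count of 0 would allow up to 3 counts, which Hey1 in WT 15418 and WT 15420 and Jag2 in WT 15420 did not exceed, so these values are at the limit of the depth. Levels are given below as TMM-normalized CPM, a depth-scaled count after adjusting the libraries to each other, unless stated as TPM. The nature of the sorted cells bears on every value. Endothelial genes were abundant in libraries of LT-HSCs. The summed CPM of 18 endothelial markers ran from 2778 to 14061 in KO and from 1428 to 9373 in WT. For 12 markers of LT-HSCs it ran from 608 to 1864 in KO (mean 1290) and from 485 to 723 in WT (mean 594). By edgeR at an adjusted p below 0.1, 4 of these 12 were higher in KO and 0 lower. Of all genes tested, 1.32% were higher and 2.67% lower. Of the 18 endothelial markers, 0 passed in either direction. The part of this difference in the values of the 10 genes was not tested. Stab2, a scavenger receptor of sinusoidal endothelium, ranged from 6.07 CPM in WT 15416 and 271.5 in KO 15415 to 2118 in KO 15409, and Cdh5 (VE-cadherin) and Kdr were above 0 in every library. Kit and Procr, expressed by HSCs, were also present in every library. Their log2 fold changes of KO over WT were 1.05 ± 0.35 and 1.49 ± 0.46 (SE), which did not pass (edgeR adjusted p = 0.139 and 0.117). Sums for other cell types varied too. For 9 hepatoblast markers they ran from 78.3 to 6111 CPM in KO and from 156 to 4113 in WT. For 5 megakaryocyte markers they ran from 230 to 2735 and from 199 to 849. For 5 erythroblast markers they ran from 172 to 1511 and from 143 to 4213. For 7 neutrophil and granule markers they ran from 12.6 to 844 and from 6.07 to 1964. The highest WT value for hepatoblast, erythroblast and granule markers was that of WT 15418. In bulk samples, fewer cells of a type and less RNA per cell cannot be told apart.

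None of the 10 genes passed the test between KO and WT (edgeR quasi-likelihood test, adjusted p below 0.1), where 3.99% of the 16725 genes tested did, so that a count of 0 among 10 is near the background. Nor did any pass with DESeq2 under the study's settings (6.79% of all genes). At an unadjusted p below 0.05 edgeR gave 0 of the 10, against 18.8% of all genes, and DESeq2 without a fold-change threshold gave 3 of the 10, against 20.8%. The estimate was above 0 for 8 genes and below 0 for 2. The median log2 fold change was 0.19 over the 10 genes and 0.06 over all genes tested. For none of the 10 genes were all KO libraries on 1 side of all WT libraries, as was the case for 6.36% of all genes. The plot of all libraries shows the spread within each group beside the difference between them.

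**Figure D1:**
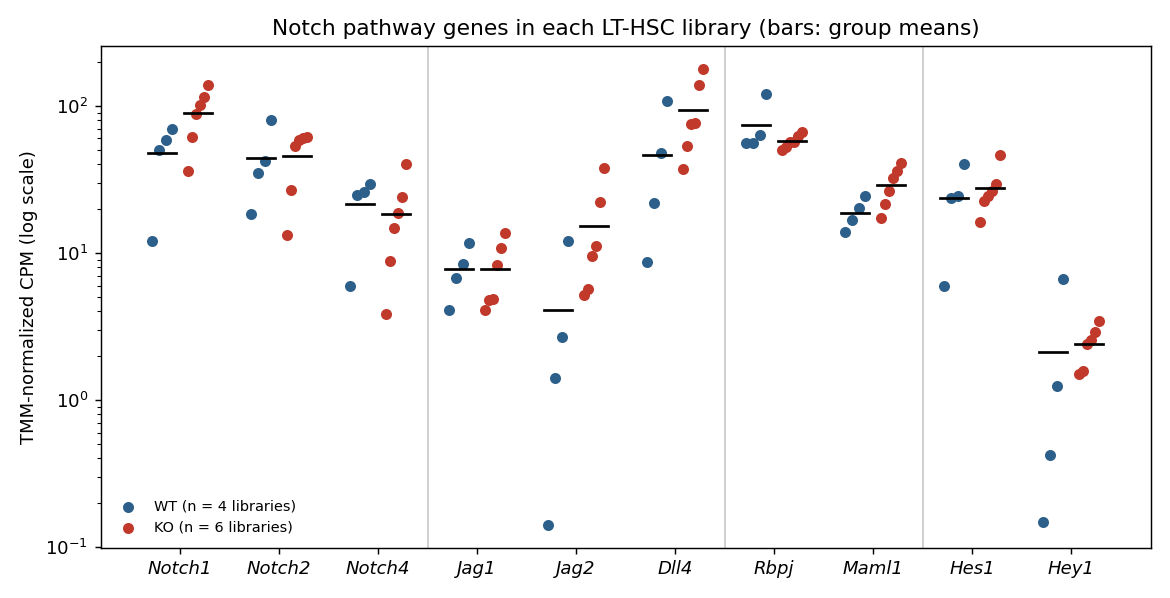
TMM-normalized CPM on a log axis of the 10 Notch pathway genes in each LT-HSC library, in the order receptors, ligands, nuclear proteins and targets. Points are libraries (4 WT, 6 KO) and bars are group means; the groups overlap for every gene, and Rbpj is the tightest in KO (49.7 to 65.9) while Jag2 and Hey1 spread widest in WT.

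Among the receptors, Notch1 had the largest difference in CPM. WT libraries were at 11.98, 50.2, 58.2 and 69.1 CPM, and KO libraries ranged from 36.0 through a median of 94.6 to 138.0 CPM. Of the 6 KO libraries, 4 were above the highest WT library, and the other two lay within the WT range. KO averaged 89.99 ± 36.9 CPM (SD over 6 libraries) against 47.4 ± 24.8 CPM (4 libraries) for WT. By edgeR the log2 fold change was 0.92 ± 0.46 (SE), which did not pass the test (adjusted p = 0.30). Without WT 15416, the library with the lowest Notch1, it was 0.60.

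Notch2, the receptor that marginal zone B cells depend on, had near-equal means of 45.7 ± 20.5 CPM in KO and 43.8 ± 26.01 CPM in WT. WT libraries were at 18.3, 34.8, 42.5 and 79.8 CPM, and KO libraries ranged from 13.3 through a median of 56.3 to 61.2 CPM. WT 15416 was the highest of all libraries, and KO 15409 the lowest. Between the groups it differed by 0.06 ± 0.46 on the log2 scale (edgeR adjusted p = 0.960). WT 15416, the highest library for Notch2, was the lowest of all for Notch1.

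Notch4, a receptor known mainly from endothelium, was at 6.0, 24.8, 25.7 and 29.6 CPM in WT and ranged from 3.8 through a median of 16.8 to 40.1 CPM in KO. The lowest libraries, KO 15415 and WT 15416, were those with the lowest Stab2, and the highest, KO 15409, had the highest Stab2. KO and WT differed by -0.23 ± 0.57 on the log2 scale (edgeR adjusted p = 0.871).

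The make-up of the receptors was compared within each library from the TPM of the main transcript, a level per length. Notch1 held 12.9% (WT 15416) to 69.9% (KO 15405) of the summed TPM of Notch1 to Notch4, Notch2 7.002% to 77.5%, Notch4 5.59% to 33.3% and Notch3 at most 4.07%. The share of Notch1 was 53.7 ± 12.1% in KO (SD, n = 6) and 38.0 ± 18.3% in WT (n = 4), a difference within the spread of the libraries. Notch1 exceeded Notch2 per length in 8 of the 10 libraries. The exceptions were WT 15416, where the ratio of Notch1 to Notch2 was 0.166, and KO 15415, where it was 0.672, and these were again the libraries of lowest Stab2. The ratio reached 8.44 in KO 15409, which had the highest Stab2. Whether endothelial cells carry this order was not tested.

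**Figure D2:**
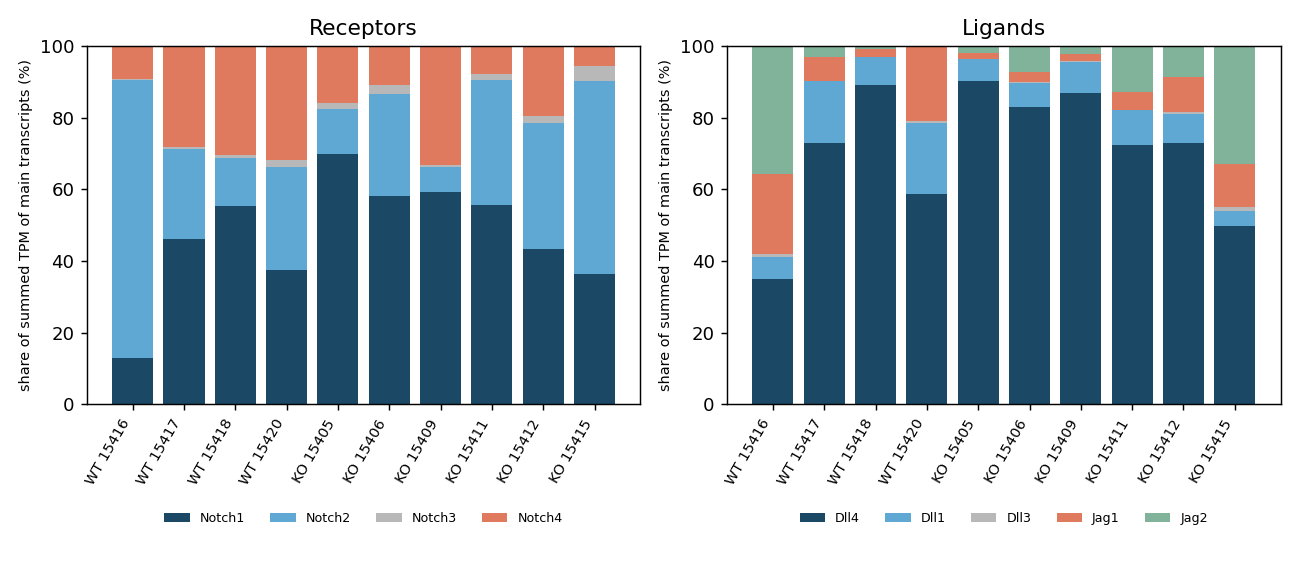
Stacked bars of the share, in percent, of each receptor (left) and each ligand (right) in the summed TPM of their main transcripts, 1 bar per library. Notch1 was the largest receptor share in 8 of the 10 libraries and Notch2 in WT 15416 (77.5%) and KO 15415. Dll4 held 34.9% to 90.1% of the ligand TPM, summed over Jag1, Jag2, Dll4, Dll1 and Dll3 and without Dlk1.

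Of the ligands among the 10 genes, Dll4, which is known from arteries and sprouting vessels, had the highest mean in both groups. WT libraries were at 8.6, 21.8, 47.7 and 107.1 CPM, and KO libraries ranged from 37.1 through a median of 76.1 to 178.6 CPM. Only 2 KO libraries were above the highest WT library. The mean was 93.2 ± 54.2 CPM in KO and 46.3 ± 43.7 CPM in WT, and the log2 fold change of 1.01 ± 0.63 (edgeR adjusted p = 0.422) did not pass the test. Its size depended on single libraries of both groups, since it was 0.66 without WT 15416, 0.71 without KO 15405 and 1.87 without WT 15418. Per length, Dll4 exceeded Notch1 in all 10 libraries, by 1.12 to 4.06 times (main transcripts), and it made up over 50% of the ligand TPM in 8 of the 10.

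Jag2, a Jagged ligand, had the largest estimate of the 10 genes and the widest error. WT libraries were at 0.14, 1.4, 2.7 and 12.1 CPM, from 1, 19, 30 and 160 counts, and KO libraries ranged from 5.2 through a median of 10.3 to 37.8 CPM. The 3 lower WT libraries were below all KO libraries, and WT 15416 was above 4 of the 6. Its log2 fold change was 1.89 ± 0.92 (edgeR adjusted p = 0.291). It was 3.40 without WT 15416, where it did not pass the test either, the adjusted p over all alternatives being 0.148 to 0.578. KO 15415, the library with the highest Jag2, was also the KO library with the lowest Stab2. The same library had the highest sums of hepatoblast (6111 CPM) and megakaryocyte markers (2735 CPM) of all. Which of these goes with Jag2 was not tested.

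Jag1, the other Jagged ligand, was low in all libraries and did not separate the groups. It was at 4.1, 6.7, 8.4 and 11.6 CPM in WT and ranged from 4.1 through a median of 6.6 to 13.7 CPM in KO, with a log2 fold change of 0.01 ± 0.48 (edgeR adjusted p = 0.991).

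In the nucleus, Rbpj, the DNA-binding partner of the Notch intracellular domain, was the steadiest of the 10 genes in KO. KO libraries ranged from 49.7 through a median of 56.8 to 65.9 CPM, and 3 WT libraries at 55.6, 55.8 and 63.5 CPM lay in that range. WT 15416 stood alone at 120.6 CPM. The log2 fold change of -0.37 ± 0.24 (edgeR adjusted p = 0.433) rested on this library, and it was -0.02 without it. Reads of Rbpj could be shared with its pseudogenes. Kallisto assigned Rbpj-ps1 0.314% to 5.95% and Rbpj-ps3 0.946% to 9.12% of the estimated count of Rbpj in a library. Both together came to 1.26% to 14.2%, and the lowest share was that of WT 15416. The value of Rbpj is uncertain for this reason, and these shares set no bound on the error.

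Maml1, a Mastermind-like coactivator, was at 13.8, 16.8, 20.1 and 24.2 CPM in WT and ranged from 17.2 through a median of 29.3 to 41.1 CPM in KO. Of the 6 KO libraries, 4 were above the highest WT library and none below the lowest. At 0.63 ± 0.30 on the log2 scale, it had the smallest adjusted p of the 10 genes (0.271 by edgeR) and did not pass the test. On the TPM scale the groups did not overlap, with KO at 3.76 to 9.64 TPM and WT at 2.34 to 3.32 TPM. Maml1 was the only one of the 10 genes with this property, which 5.85% of all genes with TPM had, nearly all of them higher in KO (5.7%).

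Of the targets, Hes1, a basic helix-loop-helix repressor, was at 6.0, 23.6, 24.2 and 40.5 CPM in WT and ranged from 16.1 through a median of 25.4 to 45.9 CPM in KO. WT 15416 was the lowest of all libraries, and the other libraries of both groups overlapped throughout. On the log2 scale KO was 0.23 ± 0.44 above WT (edgeR adjusted p = 0.827), which turned to -0.10 without WT 15416.

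Hey1, a related repressor, was the scarcest member by mean CPM in both groups. It was at 0.15, 0.42, 1.2 and 6.7 CPM in WT, from 2, 3, 14 and 88 counts, and all KO libraries lay between 1.5 and 3.4 CPM, inside the WT range. The log2 fold change was 0.16 ± 0.87 (edgeR adjusted p = 0.943), and it was 1.97 without WT 15416.

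WT 15416 therefore stood at an end of the range for most members. It was the lowest of the 10 libraries for Notch1, Dll4, Maml1 and Hes1, and the highest for Notch2, Rbpj and Hey1. The same library had the lowest Stab2 (6.07 CPM) and Ptprc (2.73 CPM) of all, while its depth was within the range of the others. The pattern was also described by the gene whose level was most like that of each member over the 10 libraries (Pearson's r of log2 CPM, among 9487 genes with a mean of at least 10 CPM, given without a test, since the libraries share composition). For Notch1 these were Snx8, Dchs1 and Hspg2 (r = 0.98, 0.98 and 0.97), and for Dll4 Cdc42bpb, Dchs1 and Ccnj (r = 0.97, 0.95 and 0.95), so that Dchs1, an atypical cadherin, stood in both lists. For Notch4 they were Cltc, Id3 and Parva (r = 0.97, 0.96 and 0.96), and for Hes1 Exoc3l4, Smad6 and Rrbp1 (each r = 0.96). For Notch2 they were Tspan13, Pex7 and Bcl11a (r = 0.97, 0.93 and 0.93), for Rbpj Cops3, Paics and Prorp (r = 0.96, 0.96 and 0.95) and for Jag1 Lrrfip2, Klf2 and Panx1 (r = 0.94, 0.94 and 0.93). For Jag2 they were Zranb3, Frrs1 and Mtr (r = 0.98, 0.96 and 0.94), for Maml1 Fbxw17, Pkd2 and Evi5 (r = 0.97, 0.86 and 0.85), and for Hey1 Igfbp5, Nln and Usp34 (r = 0.93, 0.90 and 0.90). Against Stab2, r was 0.90 for Notch1, 0.87 for Hes1, 0.81 for Dll4, 0.67 for Notch4 and 0.59 for Maml1, and it was -0.93 for Rbpj, -0.59 for Notch2, -0.51 for Hey1, -0.31 for Jag1 and -0.30 for Jag2. Over the 9 libraries without WT 15416, a choice made after the data had been seen, r was 0.70 for Notch1, 0.41 for Hes1, 0.56 for Dll4, 0.85 for Notch4 and 0.32 for Maml1, and it was -0.40 for Rbpj, -0.65 for Notch2, -0.086 for Hey1, -0.57 for Jag1 and -0.40 for Jag2. The r values of Rbpj, Hes1 and Hey1 with Stab2 thus rested largely on that library. Those of Notch1, Dll4 and Maml1 were also lower without it, and those of Notch2 and Notch4 did not rest on it. The r values with the most similar genes are given with that library included only. The point of WT 15416 lies far from the others in the plot of the 10 genes against Stab2.

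**Figure D3:**
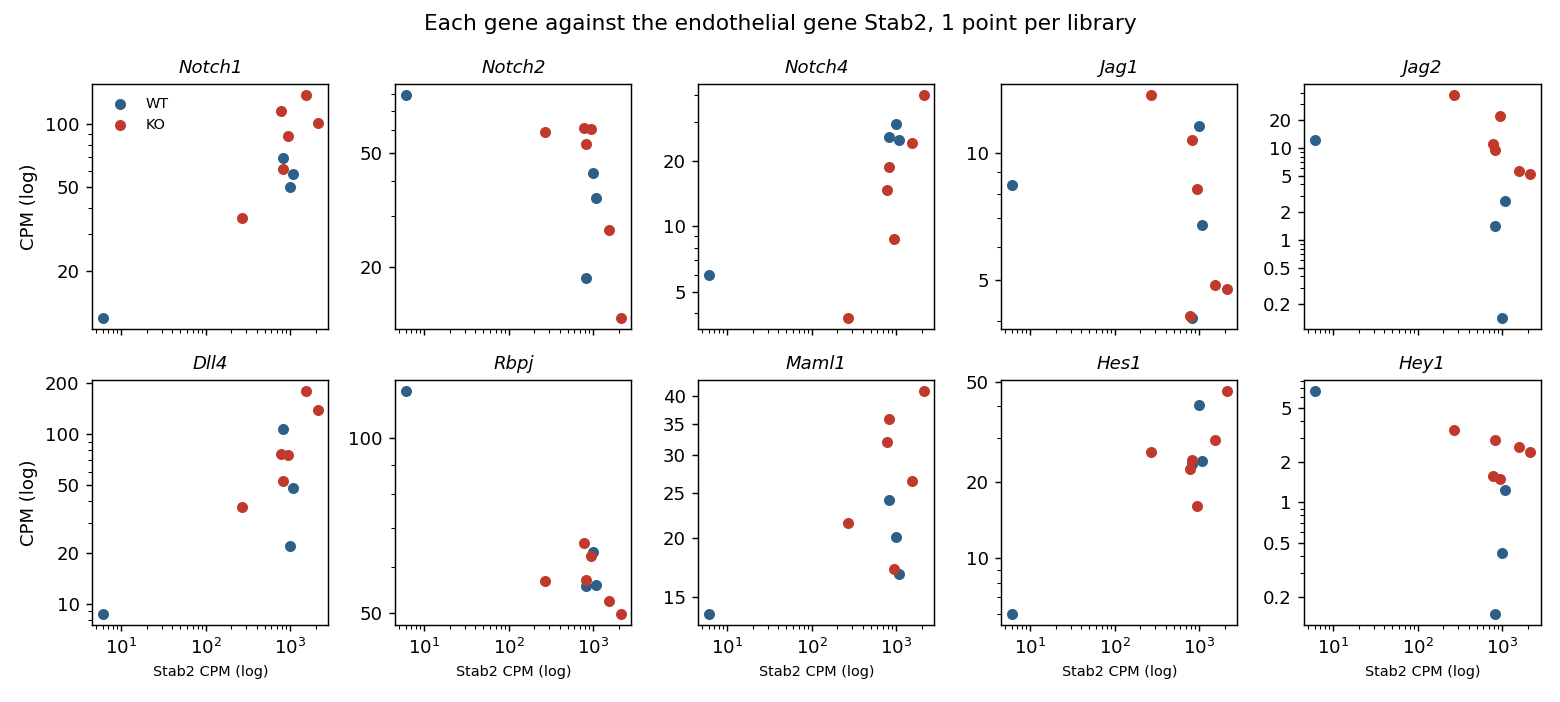
CPM of each of the 10 genes (vertical, log axis) against CPM of the endothelial gene Stab2 (horizontal, log axis), 1 point per library, WT in blue and KO in red. WT 15416 is the isolated point at a Stab2 of 6.07 CPM; it is lowest for Notch1, Dll4, Maml1 and Hes1 and highest for Notch2, Rbpj and Hey1.

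Ranked per length in WT, Hes1 (13.8 ± 8.46 TPM, SD, n = 4), Rbpj (11.03 ± 5.18 TPM) and Dll4 (9.16 ± 7.11 TPM) were the most abundant members. Notch1 (3.97 ± 2.07 TPM), Notch2 (3.46 ± 2.17 TPM), Maml1 (2.98 ± 0.45 TPM) and Notch4 (2.87 ± 1.64 TPM) followed, and Jag1 (1.13 ± 0.51 TPM), Hey1 (0.76 ± 1.07 TPM) and Jag2 (0.72 ± 0.90 TPM) were the lowest. Of the 9 neighbouring pairs in this order, only Dll4 and Notch1 differed by more than the spread of their ratio between WT libraries (log2 ratio 1.002 ± 0.74), and all others did not. In KO, Dll4 came first (28.8 ± 18.7 TPM), before Hes1 (21.7 ± 9.25 TPM), Notch1 (11.7 ± 5.75 TPM) and Rbpj (11.6 ± 2.47 TPM), and Hey1 came last (1.06 ± 0.22 TPM). For Notch4 in KO 15405 the gene's 14.52 TPM exceeded the 3.88 TPM of its main transcript, because short transcripts with few reads weigh heavily per length. Nearly all reads of each gene were assigned to 1 protein-coding transcript. It held at least 93.2% of the estimated count in every library for Notch1, Notch2, Jag1, Dll4 and Hes1, at least 88.99% for Notch4, Rbpj and Maml1, and at least 82.6% for Jag2. For Hey1 the lowest share was 73.6%, in WT 15418, where Hey1 had 2 counts.

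Transcript length moved with the difference between KO and WT. When all genes were split by length into 5 classes of equal size, those in the longest class (over 4361 bases, weighted by the estimated counts of their transcripts) had a median log2 fold change of 0.36, and those in the shortest class (up to 1546 bases) of -0.31. Among the members, 7 of 10 were in the longest class, namely Notch1 (9417 bases), Notch2 (10499), Notch4, Jag1, Jag2, Rbpj and Maml1. With an offset for this length, fitted after the data had been seen, Notch1 was at 0.34, Dll4 at 0.79, Jag2 at 1.43 and Maml1 at 0.23 on the log2 scale, and Rbpj at -0.83 (edgeR adjusted p = 0.132), the last being the only member with an unadjusted p below 0.05 there. The offset lowered the median of the 4 longer classes, raised that of the shortest from -0.31 to -0.24, and left all 5 between -0.24 and -0.11. With it 34 of all genes were called higher and 349 lower, against 221 and 446 without it. Its part in the differences of the members was not tested further. The folds of the TPM means (2.94 for Notch1 and 3.14 for Dll4) were larger than those of the CPM means (1.90 and 2.01), and the median log2 ratio of TPM means over all genes of at least 1 TPM was 0.42.

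**Figure D4:**
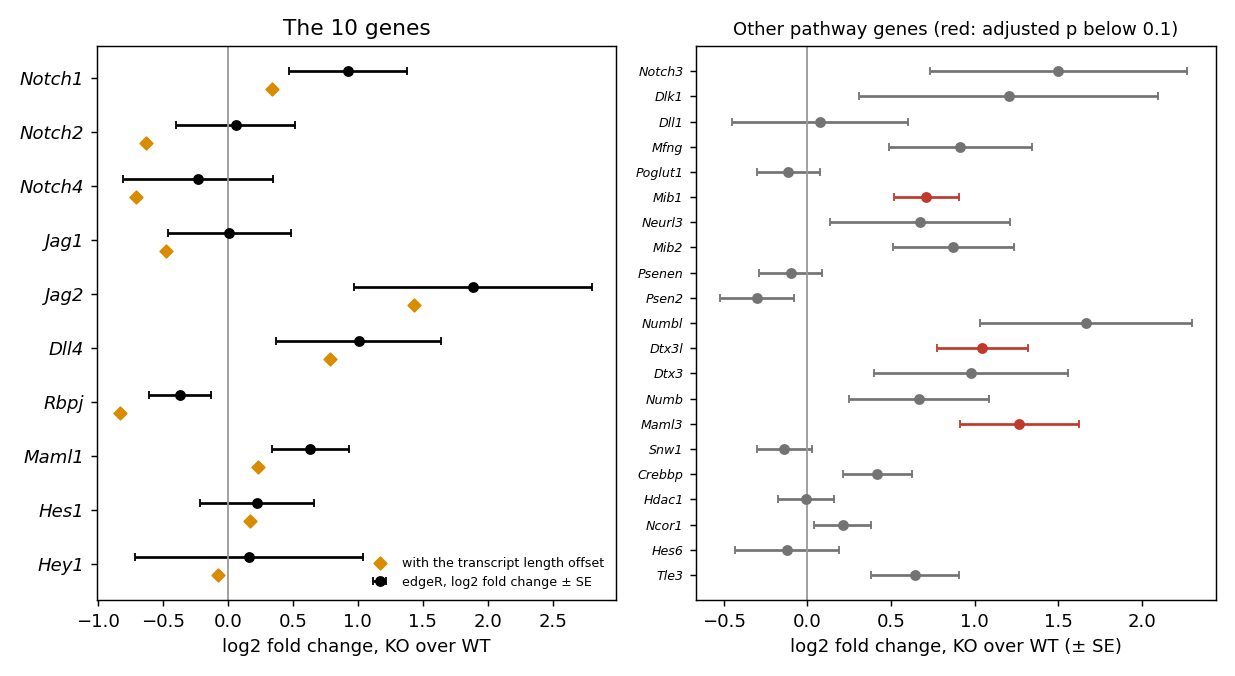
Log2 fold changes of KO over WT from edgeR with standard errors (horizontal bars). Left, the 10 genes, with the estimate under the offset for transcript length as a diamond, which is lower than the main estimate for every gene; right, other pathway genes, where Mib1, Dtx3l and Maml3, in red, passed an adjusted p below 0.1.

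Other genes of the pathway were taken from 9 lists by role, of which 60 of 62 genes were tested. In these lists 3 genes rose in KO, none fell and 57 did not pass the test by edgeR (5.0% called, against 3.99% of all genes). With DESeq2 under the study's settings 4 passed (6.67%, against 6.79%). Counted in either direction, neither share differed much from the background. All 3 edgeR calls were higher in KO, where 1.32% of all genes were called higher and 2.67% lower. Whether the share called higher exceeds chance was not tested. At an unadjusted p below 0.05, edgeR gave 16 of the 60 (26.7%), against 18.8% of all genes. The median log2 fold change was 0.43 over the 60 genes and 0.06 over all genes tested, and this difference was not tested. The 3 genes that rose were Mib1, Dtx3l and Maml3.

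Mib1, the ubiquitin ligase that drives endocytosis of Notch ligands, was at 30.9, 34.5, 41.3 and 45.0 CPM in WT and at 52.1 to 75.1 CPM (median 61.4) in KO, with no overlap. Its log2 fold change was 0.71 ± 0.19 (edgeR adjusted p = 0.0910). Dtx3l, of the Deltex family of ubiquitin ligases, was at 10.6, 15.2, 18.2 and 18.7 CPM in WT and at 19.6 to 39.8 CPM (median 33.9) in KO, with a log2 fold change of 1.05 ± 0.27 (adjusted p = 0.0865). Maml3, a second Mastermind-like coactivator beside Maml1, was at 5.2, 15.4, 16.8 and 22.8 CPM in WT and at 28.9 to 48.3 CPM (median 34.7) in KO, with a log2 fold change of 1.27 ± 0.35 (adjusted p = 0.0959). With DESeq2 under the study's settings the adjusted p was 0.0286 for Mib1, 0.0249 for Dtx3l and 0.0313 for Maml3. The edgeR calls were close to the threshold. Leaving out 1 library ended the call of Mib1 in 9 of 10 cases and those of Dtx3l and Maml3 in 8 of 10 each. Without KO 15405, KO 15406, KO 15412 or KO 15415, edgeR called 0 genes of the whole table. Under the offset for weighted length the adjusted p was 0.645 for Mib1, 0.264 for Dtx3l and 0.229 for Maml3, and without WT 15416 it was 0.188, 0.165 and 0.165, at log2 fold changes of 0.63, 1.14 and 0.98. Of the whole table, edgeR called 0 genes without that library, while 1264 higher and 1316 lower genes had an unadjusted p below 0.05. Numbl, a paralog of the Notch antagonist Numb, passed with DESeq2 (adjusted p = 0.0618) and not with edgeR (log2 fold change 1.67 ± 0.63, adjusted p = 0.188).

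By list, 1 of 5 genes of ligand endocytosis, 1 of 10 inhibitors and turnover genes and 1 of 7 other coactivators rose, and no gene passed in the other lists. In ligand endocytosis, Mib2 (0.87 ± 0.36) and Neurl3 (0.67 ± 0.54) were not called. Among inhibitors and turnover genes, the same held for Numb (0.67 ± 0.42) and Dtx3 (0.98 ± 0.58), and among coactivators for Crebbp (0.42 ± 0.21) and Snw1 (-0.14 ± 0.17). Of the 5 genes that glycosylate Notch, Mfng, a Fringe that alters the choice of ligand, was at 0.92 ± 0.43 and Poglut1 at -0.11 ± 0.19. Of the 10 genes of the ADAM and gamma-secretase step, Psen2 was at -0.30 ± 0.22 and Psenen at -0.10 ± 0.19. Among 7 corepressors tested, Hdac1 was at -0.01 ± 0.17 and Ncor1 at 0.21 ± 0.17. Among 11 other targets tested, Tle3, a Groucho corepressor kept in that list, was at 0.65 ± 0.26 and Hes6 at -0.12 ± 0.31. The remaining receptor Notch3 was at 1.5 ± 0.77, and the ligands Dlk1 and Dll1 at 1.20 ± 0.90 and 0.08 ± 0.53. All these values are log2 fold changes of KO over WT by edgeR with SE. Dlk1 is also 1 of the 9 hepatoblast markers. It was highest in KO 15415 (73.5 CPM), which had the highest hepatoblast sum, and its log2 fold change was 2.62 without WT 15418.

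Parts of Notch1, Notch2, Dll4 and Maml1 overlap exons of other annotated genes. For Notch1, 7.50% of its exonic bases lie opposite 0610009E02Rik and 2.91% opposite Gm13568. For Notch2, 5.02% are shared with Gm42820 on the same strand, for Dll4 5.56% with the antisense Gm14207, and for Maml1 2.44% with Gm26542 on the opposite strand. The libraries do not mark strand, so reads in these stretches cannot be told apart.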

How the data were processed

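Bulk RNA-sequencing libraries of sorted LT-HSCs (6 KO, 4 WT) were made by the authors with SmartSeq2 and quantified with Kallisto against Gencode transcripts on GRCm38; bcl2fastq 2.20 and kallisto 0.44.0 are named in the submitters' processing notes. The gene table deposited by the authors holds counts, summed over the transcripts of each symbol and rounded, without normalization. The transcript tables deposited by the authors hold estimated counts, and TPM scaled by Kallisto for effective length. Symbols were matched to Gencode vM21 for 16620 of 17404 genes, and summed transcript estimates were within 1 count of 97.5% of the table's values. No column of an unmapped sample was found.

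The 16725 genes with a total of 11 counts or more were tested for KO against WT by edgeR 4.0.16 under R 4.3.3 (TMM, glmQLFit with robust estimation, glmQLFTest), with Benjamini-Hochberg adjustment over all genes and a threshold of 0.1, that of the study. DESeq2 1.42.0, with the study's log2 fold-change threshold of 0.1, was an alternative, and scripts were tested on simulated data. Standard errors are the estimate over the root of the quasi-likelihood F. The other alternatives were normalization, filters, length offsets (loess, span 0.3), Xist as a covariate and leaving out libraries. Depth limits the scarce genes, and such limits hold for counting error alone. The reads carry no molecular identifiers. Since nothing links libraries to litters, p-values measure the spread between these samples, which may be partly technical.

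Members and lists were chosen with earlier results of these data known. Named were the 10 members, every listed pathway gene passing edgeR or DESeq2, up to 2 further genes per list by mean TPM, and the 3 genes most like each member. TPM were compared within libraries, or between groups as a description. Python 3.11.15, pandas 2.3.3, numpy 2.4.6 and matplotlib 3.10.9 were used for tables and figures. An item of the marker values is not reported here. Promoter windows are RefSeq's on GRCm38.p6.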

Additional observations from a re-analysis of the deposited data

Results flagged for a closer look

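In 20 groups (10 genes in KO and in WT), 2 held a library farther from the others than Dixon's critical value allows, both of them WT 15416. It was the highest of the 4 WT libraries for Rbpj, at 120.6 CPM against 63.5 CPM in the next, and for Hey1, at 6.67 CPM against 1.24 CPM in the next. Chance flags about 1 in 20 groups. The part of this library's composition in these values was not tested.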

How the results depend on the processing

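No member passed in any of the alternatives, and 30 of 250 estimates of the members turned in sign. With a length offset on plain mean length, Notch2 was at -0.51 and Jag1 at -0.45; on weighted length, Notch2 at -0.63, Jag1 at -0.47 and Hey1 at -0.075. With average-length offsets Notch4 was at 0.35. With Xist as a covariate, Notch2 was at -0.13, Notch4 at 0.14, Jag1 at -0.55 and Hey1 at -0.045. Leaving out 1 library, the log2 fold change ran from -0.14 to 0.52 for Notch2, -0.23 to 0.28 for Jag1, -0.097 to 0.62 for Hes1 and -0.17 to 1.97 for Hey1. The sets of libraries named next were left out after the data had been seen. Without the 2 of lowest endothelial sum, Jag1 was at -0.15, Hes1 at -0.063, Dll1 at -0.037, Snw1 at 0.0034, Hdac1 at 0.034 and Hes6 at 0.025, and without the 3 of highest hepatoblast sum, Notch2 was at -0.33, Notch4 at 0.14, Jag1 at -0.66, Hey1 at -0.42, Hdac1 at 0.20 and Hes6 at 0.019.

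Of the pathway genes, Dll1 was at -0.19 and Crebbp at -0.13 on weighted length and Dll1 at -0.089 with average-length offsets. Psenen was at 0.10 and 0.058, Hdac1 at 0.036 on plain length and Ncor1 at -0.15 and -0.18 under the 2 length offsets, and Hdac1 at 0.071 with average-length offsets and 0.064 with Xist. Leaving out 1 library, Dll1 ran from -0.24 to 0.27, Psenen from -0.16 to 0.069, Hdac1 from -0.083 to 0.093 and Hes6 from -0.37 to 0.11. The causes were not tested.

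The count of called pathway genes (3) was 8 with DESeq2 without threshold, 0 at an adjusted p below 0.05, under both length offsets, with Xist and without either set of libraries, and 0 to 2 leaving out 1 library. Of all genes, 221 were higher and 446 lower; DESeq2 gave 585 higher under the study's settings and 998 higher and 1145 lower without threshold, a threshold of 0.05 or Xist gave 0, the offset on plain length gave 51 higher and 487 lower and that on weighted length 34 and 349, both sets of libraries 0, and leaving out 1 library gave 0 to 405 higher and 0 to 598 lower. Beside those 0 calls, edgeR without the first set still had 1190 higher and 1158 lower genes with an unadjusted p under 0.05. Over the settings, the median of all genes was -0.17 to 0.15 against 0.06. The order of levels in WT kept 10 of 10 places with main transcripts, 1 when CPM were divided by the plain mean length, which is 1519 bases for Notch1 against 9417 weighted, and 4 to 8 leaving out 1 WT library. No analysis paired by litter was possible because the labels do not name the litter of any embryo.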
